A study of Mus musculus with 2 samples.

Results

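The interleukin-1 (IL-1) family and inflammasome genes examined here were 10 genes taken by symbol: Il1a, Il1b, Il1rn, Il1r1, Il1r2, Il18, Il18bp, Il33, Il1rl1 and Nlrp3. All 10 were listed in both deposited gene tables, which together named 28200 genes. They were chosen as a family, with earlier results of these data known, and their levels were read in each cell class of 2 single-cell RNA libraries of mouse liver. Both mice were males operated on by pIVCL, a partial ligation of the inferior vena cava that hinders the outflow of blood from the liver and congests it. The library labelled control came from 1 mouse of genotype Ctgf fl/fl, which carries floxed alleles of Ctgf (current symbol Ccn2, the gene of connective tissue growth factor) and no Cre. The library labelled knockout came from 1 mouse of genotype Cdh5-CreERT2; Ctgf fl/fl, in which the same floxed alleles are joined by a tamoxifen-inducible Cre recombinase driven by the endothelial Cdh5 promoter. No mouse without ligation was among the samples, both libraries carry the same batch label, and the sources used here do not state age or tamoxifen dosing. Cells were released with pronase and collagenase. Most hepatocytes were then spun out and dead cells and erythrocytes removed on a density gradient, so cell numbers are those of the suspension. The sample titles give the genotypes the other way round. Levels are given in CPM, the counts of a gene in a class scaled to 1000000 counts of that class. The library labelled control comes first wherever a pair of values is given without labels. In endothelial cells the targeted gene Ccn2 was at 921 CPM (907 to 935) and 4.61 CPM (3.87 to 5.45), as the genotypes would have it and not the titles, so groups follow the genotypes.

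IL-1 alpha (Il1a) and IL-1 beta (Il1b) are inflammatory cytokines that act through one receptor, Il1r1, which signals with its co-receptor Il1rap through the adaptor MyD88. The pathway is held back at several points: Il1rn is a secreted antagonist that occupies the receptor, Il1r2 is a decoy receptor that binds the ligand without signalling, and Il18bp is a soluble protein that captures IL-18. IL-1 beta and IL-18 are made as inactive precursors and cut by caspase-1 in inflammasomes such as that of the sensor Nlrp3, whereas IL-33 is a nuclear alarmin freed from damaged cells and sensed by Il1rl1 (ST2). In the liver, Kupffer cells, the resident macrophages of the sinusoids, are a known source of IL-1 and IL-18, and endothelial and stellate cells are known to respond to IL-1. Messenger RNA, which was measured here, does not report processing or release of these proteins.

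The promoters of the 2 IL-1 ligand genes, the antagonist and Il18 are shown because these 4 genes differed most between the libraries in Kupffer cells with levels above 50 CPM, in opposite directions for the ligands and the antagonist, and because Il1a, Il1b and Il1rn lie on the same chromosome. The sequences are the 250 bases before the start in the RefSeq promoter table of build GRCm38.p6, read 5′ to 3′ along the gene. They lie at chr2:129309973-129310222 (minus strand) for Il1a, chr2:129371140-129371389 (minus strand) for Il1b, chr2:24336610-24336859 (plus strand, the first of 3 listed starts) for Il1rn and chr9:50554450-50554699 (plus strand) for Il18. Capitals mark matches on either strand to 4 short motifs.
Il1a: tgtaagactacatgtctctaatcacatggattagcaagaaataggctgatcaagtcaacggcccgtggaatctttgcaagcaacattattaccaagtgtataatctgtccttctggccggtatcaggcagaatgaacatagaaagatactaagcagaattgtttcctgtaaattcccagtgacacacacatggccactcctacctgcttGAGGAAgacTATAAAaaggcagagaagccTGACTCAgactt
Il1b: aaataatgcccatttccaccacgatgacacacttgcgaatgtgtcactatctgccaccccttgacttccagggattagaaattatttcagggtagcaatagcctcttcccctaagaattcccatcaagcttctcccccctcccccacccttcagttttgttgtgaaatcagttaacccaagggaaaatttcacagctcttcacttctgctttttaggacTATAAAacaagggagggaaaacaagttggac
Il1rn: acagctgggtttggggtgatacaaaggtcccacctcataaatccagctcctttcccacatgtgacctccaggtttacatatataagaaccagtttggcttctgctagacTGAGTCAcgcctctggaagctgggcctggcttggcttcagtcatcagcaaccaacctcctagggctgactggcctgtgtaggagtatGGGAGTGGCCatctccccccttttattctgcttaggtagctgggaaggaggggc
Il18: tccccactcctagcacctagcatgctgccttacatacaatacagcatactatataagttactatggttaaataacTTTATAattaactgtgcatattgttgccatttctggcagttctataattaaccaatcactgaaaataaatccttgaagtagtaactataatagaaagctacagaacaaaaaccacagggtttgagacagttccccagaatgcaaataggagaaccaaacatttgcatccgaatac
The motifs searched were a kappaB-type motif (GGG and CC with any 5 bases between them), an AP-1-type motif (TGANTCA), a PU.1-type motif (GAGGAA) and a TATA motif (TATAAA), none of whose matches overlap in these 4 windows. Il1a held a TATA match from 32 to 27 bases before its start, an AP-1-type match nearer to the start and a PU.1-type match just upstream. Il1b held only a TATA match, from 31 to 26 bases before its start. Il1rn held 1 AP-1-type and 1 kappaB-type match and no TATA match, and Il18 held only a TATA match on the opposite strand. Of 32851 mouse promoter windows of this length, 45.8% held a kappaB-type match, 23.3% a PU.1-type match, 12.4% a TATA match and 6.75% an AP-1-type match. These matches describe letters in the windows. The counted RNA does not show which start was used.

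Cells were placed in classes by gates on marker genes, after filters that kept 7917 and 8799 of 10000 barcodes. The gates gave 1386 and 1524 Kupffer cells, 1977 and 3522 endothelial cells, 607 and 534 mesenchymal cells (mostly stellate), 992 and 284 monocytes and monocyte-derived cells, 29 and 188 neutrophils, 128 and 105 conventional dendritic cells and 62 and 20 mesothelial cells. Another 1383 and 1616 cells passed the gates of 2 or more lineages and were set aside as possible doublets. With 1 library per label there was no replicate and no test was possible, so differences between the mice, the operations, the libraries and the genotypes cannot be told apart. All intervals are 95% intervals that cover counting error alone and treat each count as an independent molecule. A gene counted as measured in a class that held 20 or more of its counts, both libraries summed, with 10 CPM or more in 1 library, and as higher or lower by size alone when the libraries were at least 1.5-fold apart. A gene with 10 CPM in only 1 library was measured through the library where it stood higher, which makes a call more likely. The shares of all genes given beside the counts passed the same rule. Levels of different genes are not compared with each other, since they are not corrected for gene length.

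Kupffer cells were the main source of 5 of the 10 genes in both libraries. Among the gated cells of the library labelled control and the library labelled knockout they held 54.3% and 52.5% of Il1a counts, 75.5% and 77.6% of Il1rn, 80.4% and 87.5% of Il18, 87.5% and 94.9% of Il18bp and 63.3% and 84.7% of Nlrp3. Il1b differed from these. Its counts were spread over Kupffer cells (39.3%, 36.8 to 41.8), monocyte-derived cells (33.7%, 31.3 to 36.1) and other classes in the library labelled control, whereas Kupffer cells alone held 83.5% (82.4 to 84.6) in the library labelled knockout. Endothelial cells held nearly all the rest of Il1a, with 39.7% and 46%. The receptor Il1r1 sat mainly in endothelial cells (51.9% and 58.8%) and mesenchymal cells (37.5% and 30.5%), with 4.72% and 2.87% in Kupffer cells. Il33 came from endothelial cells (38.1% and 58.2%), mesenchymal cells (35.5% and 20%) and mesothelial cells (16.9% and 14.8%). Il1r2 counts were largest in monocyte-derived cells (42.5%) in the library labelled control and in neutrophils (75.1%) in the library labelled knockout, and the 2 libraries also differed in the numbers of those cells. Il1rl1 was rare, and 31.0% and 40.9% of its counts came from 15 and 7 basophils or mast cells.

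**Figure D1:**
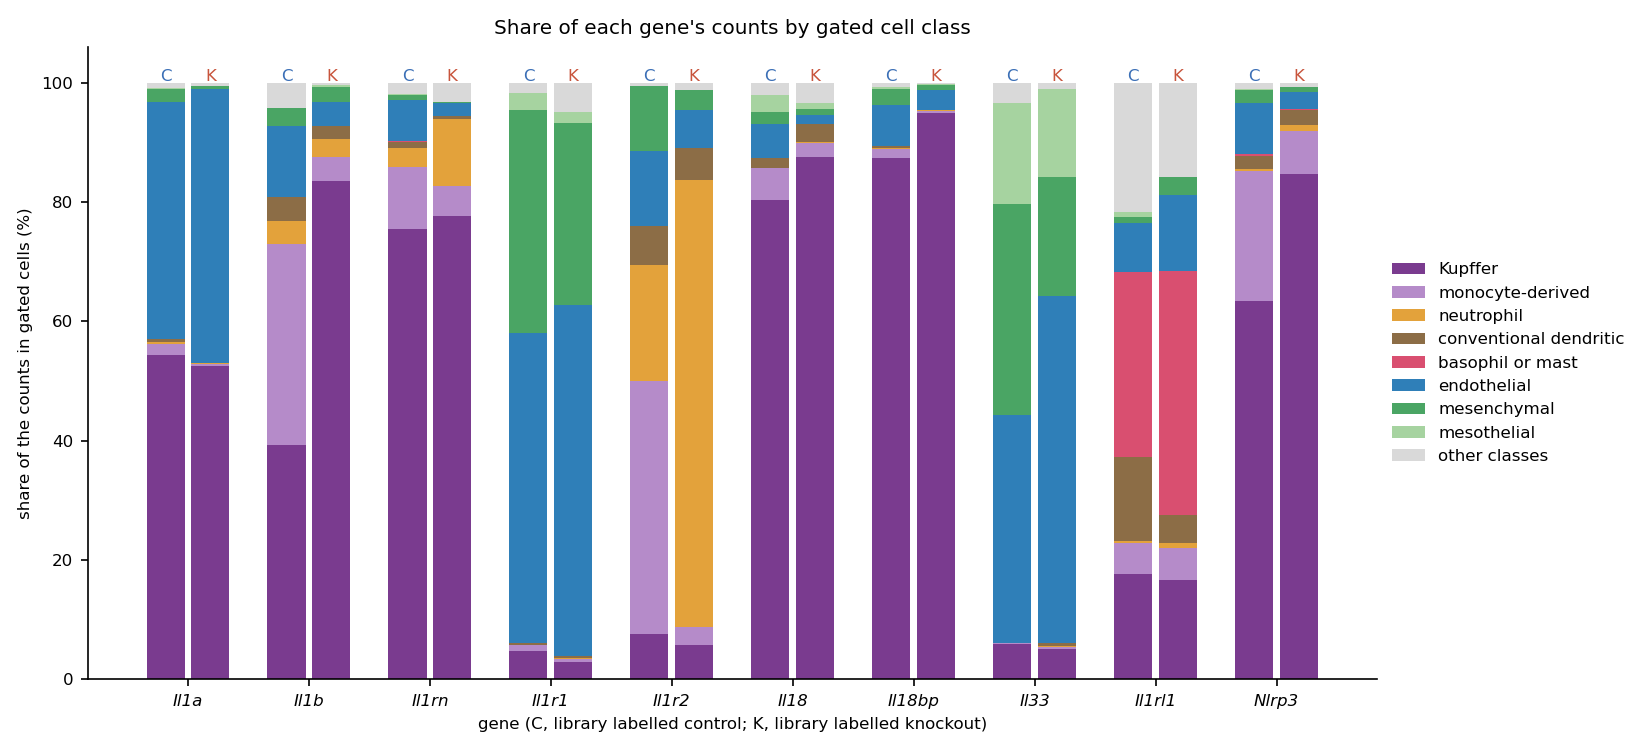
Share of the counts of each gene that each gated cell class held, in percent, for the library labelled control (C) and the library labelled knockout (K); cells set aside or passing no gate are not in the total. Kupffer cells (dark purple) take 39.3% of Il1b counts in the bar marked C and 83.5% in the bar marked K.

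In Kupffer cells the agonist genes stood higher, and the antagonist and Il18 lower, in the library labelled knockout. Il1b was at 30.1 CPM (27.7 to 32.6, 602 counts) and 141 CPM (136 to 145, 3826 counts), 4.68-fold higher in the library labelled knockout, with a log2 ratio of 2.23 (2.10 to 2.35). Il1a was at 67.6 CPM (64.1 to 71.3) and 132 CPM (128 to 137), a log2 ratio of 0.97 (0.88 to 1.06). Neither pair of intervals overlapped. The antagonist Il1rn went the other way, at 91.2 CPM (87.1 to 95.5) and 33.8 CPM (31.6 to 36.1), a log2 ratio of -1.43 (-1.55 to -1.32). Il18, the second cytokine that needs caspase-1, was at 169 CPM (163 to 174) and 93.9 CPM (90.3 to 97.6), a log2 ratio of -0.84 (-0.92 to -0.77). Il1r1 was low in these cells, at 11.8 CPM (10.3 to 13.4) and 5.15 CPM (4.33 to 6.08).

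The IL-18 trap and the sensor did not pass the size rule in Kupffer cells. Il18bp stood at 805 CPM (792 to 817) and 792 CPM (782 to 803), a log2 ratio of -0.02 (-0.05 to 0.01). Nlrp3 stood at 140 CPM (135 to 145) and 151 CPM (147 to 156), a log2 ratio of 0.11 (0.04 to 0.18). Of the 7 members measured, 2 were higher and 3 lower, against 4.81% of 8906 genes higher and 8.32% lower in this class. Among the lower ones, Il1r1 reached 10 CPM only in the library labelled control. The median log2 ratio of the 7 was -0.02, and that of all genes measured was 0.00. Il1r2, Il33 and Il1rl1 were not measured, with 30, 61 and 77 counts over both libraries.

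More Kupffer cells held Il1b in the library labelled knockout, and not only more counts per cell. An Il1b count was found in 19.6% and 58.2% of Kupffer cells, at median depths of 12995 and 17305.5 counts per cell. In B cells, which are not a known source, 3.47% and 1.67% held a count (median depths 4550 and 4066). With every cell thinned to 2800 counts, a depth that all kept cells reach, the Kupffer shares were 5.34% and 25.8% and the B cell shares 2.31% and 1.26%. Il1a counts were found in 46.7% and 71.8% of Kupffer cells, and in 15.8% and 27.6% after thinning. For Il1rn the share of cells was nearly the same, 35.4% and 34.5%, and 11.7% and 7.68% after thinning. Its counts were unevenly spread in the library labelled control, where 10 cells held 26.0% of them and 1 cell held 109. Il18 counts were found in 76.4% and 68.6% of cells, and in 35.4% and 21.6% after thinning.

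Kupffer cells with Il1b also more often held the sensor at equal depth in the library labelled control. After thinning, 47.3% (35.6 to 59.3) of the 74 Il1b-holding cells there had an Nlrp3 count, against 28.1% (25.7 to 30.6) of the 1312 cells without Il1b. In the library labelled knockout these shares were 36.1% (31.4 to 41.1) of 393 cells and 32.7% (30 to 35.5) of 1131, and the intervals overlapped. Il1a was found beside Il1b in 24.3% (15.1 to 35.7) of those 74 cells and in 31.0% (26.5 to 35.9) of the 393, against 15.3% (13.4 to 17.4) and 26.4% (23.9 to 29.1) of the cells without Il1b.

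The Kupffer class was not made up alike in the 2 libraries. Of 2 Kupffer clusters, the first held 559 and 1298 of the gated cells and the second 497 and 49. Il1b was higher in the library labelled knockout in both, at 26.8 and 146 CPM in the first and 36.5 and 206 CPM in the second, and so was Il1a, at 67.3 and 134 CPM and at 72.3 and 147 CPM. Il18 was lower in both, at 203 and 97.0 CPM and at 159 and 70.1 CPM. Il1rn was lower in both by unequal amounts, at 44.3 and 34.3 CPM in the first cluster, a log2 ratio of -0.37, and at 165 and 57.9 CPM in the second, a log2 ratio of -1.51. The 330 and 177 gated Kupffer cells of other clusters had Il1rn at 58.7 and 26.3 CPM (-1.16) and Il1b at 26.4 and 95.3 CPM (1.85). Splitting the class instead by Timd4, a marker of long-resident Kupffer cells, left the pattern in place. Kupffer cells with a Timd4 count had Il1b at 30.4 and 140 CPM, and those without one had it at 28.7 and 158 CPM.

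**Figure D2:**
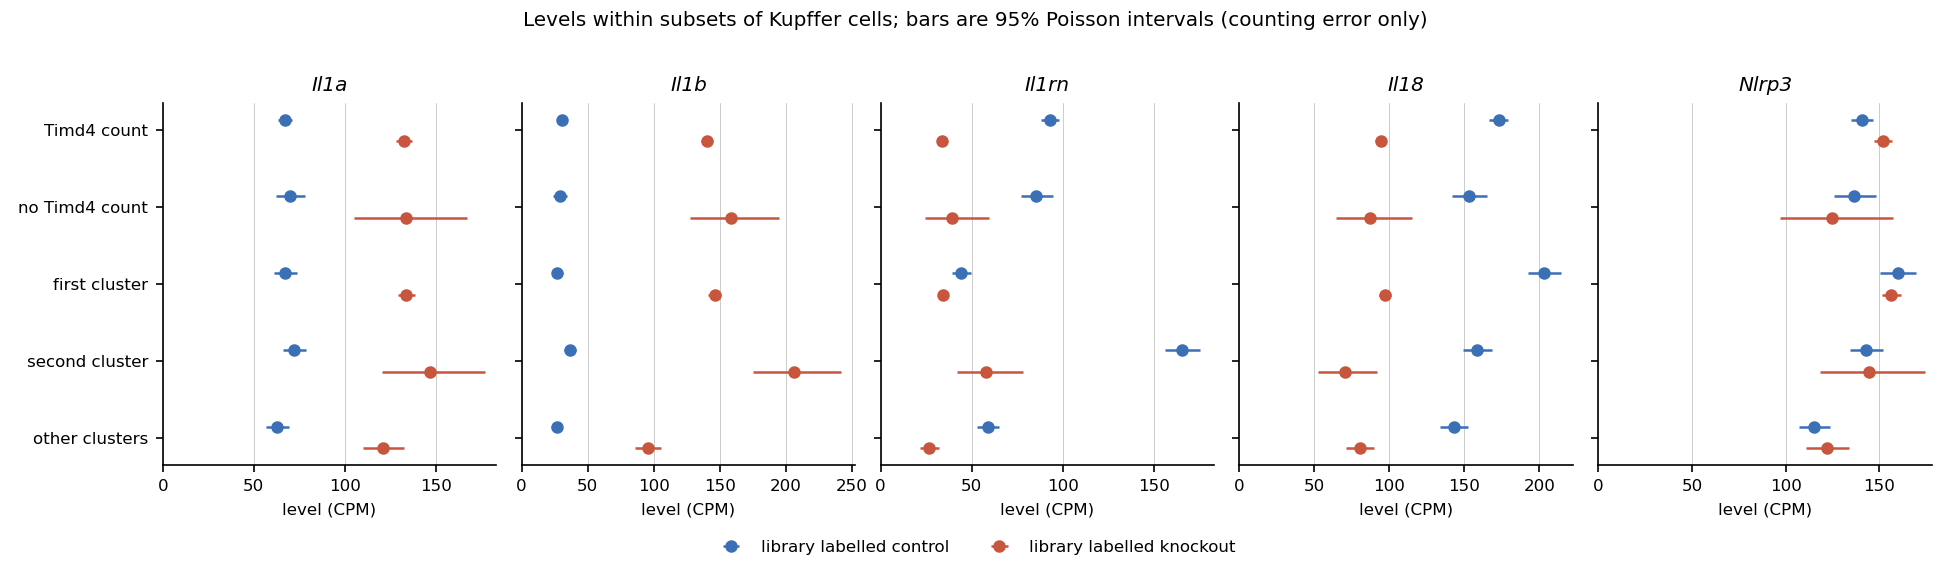
Levels of 5 genes (CPM) within subsets of gated Kupffer cells, by presence of a Timd4 count and by cluster, in the library labelled control (blue) and the library labelled knockout (red); bars are 95% Poisson intervals for counting error. Il1b and Il1a are higher and Il18 lower in the library labelled knockout in each subset, while Il1rn in the first cluster differs least, at 44.3 and 34.3 CPM.

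The summed level of neutrophil marker genes in the Kupffer class was also higher in the library labelled knockout. The 8 neutrophil markers, all with counts in both libraries, summed to 94.5 CPM in Kupffer cells of the library labelled control and 180 CPM in those of the library labelled knockout. The highest single marker made up 60.9 and 93.7 CPM of these sums. It was not the neutrophil alarmin S100a8, the highest of the 8 in neutrophils, which was at 10.99 and 18.21 CPM in Kupffer cells. Whether the summed counts came from neutrophils was not tested. Kupffer cells held 2.74 Il1b counts per count of S100a8 with the control label and 7.73 with the other. Neutrophils held 0.00937 and 0.00194, the first with 38 of 60 Il1b counts in 1 cell. Without Kupffer cells holding a neutrophil marker count the Il1b log2 ratio was 2.22, and it lay between 2.12 and 2.50 over all alternatives run. The cells left out for that value of 2.22 were 60.9% and 85.8% of the class, so it rests on the remainder.

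Other Kupffer genes of the pathway were read from 6 lists of 53 genes, of which 50 were listed in the tables. In Kupffer cells 37 were measured, with a median log2 ratio of 0.23. Of these, 9 were higher and 4 lower, against 4.81% and 8.32% of 8906 genes. The inflammasome list had 16 measured genes, 5 higher and 1 lower. The higher ones included Mefv (pyrin), at 11.5 and 25.1 CPM, Txnip, a redox protein that binds Nlrp3, at 232 and 481 CPM, and Naip1, a sensor of bacterial secretion needles, at 26.2 and 54.0 CPM. Nlrp1a was the 1 lower gene, at 12.6 and 7.72 CPM. Core parts were close: Casp1, which cuts the precursors, was at 110 and 126 CPM, and its adaptor Pycard (ASC) at 58.6 and 54.9 CPM. Ninj1, which ruptures the membrane of dying cells, was higher, at 127 and 195 CPM, and the pore protein Gsdmd was at 88.5 and 95 CPM. None of the 9 signal adaptors differed by 1.5-fold, Tab2 (200 and 273 CPM) and Irak1 (175 and 177 CPM) among them. Il1rl2, the IL-36 receptor, was at 15.4 and 8.50 CPM.

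The genes that IL-1 signalling is known to raise were split in Kupffer cells. Of 8 measured, 3 were higher and 2 lower, against 4.81% and 8.32% of 8906 genes. The higher ones are feedback regulators of NF-kappaB: Nfkbiz stood at 67.4 and 159 CPM (log2 ratio 1.24, 1.15 to 1.33), Tnfaip3 (A20) at 57.8 and 117 CPM, and Nfkbia at 487 and 809 CPM. The lower ones were the acute-phase gene Saa3, at 72.5 and 28.7 CPM, and the neutrophil chemokine Cxcl2, at 85.2 and 46.2 CPM. Saa3 was concentrated in few cells, with 315 of 1452 counts in 1 cell of the library labelled control and 482 of 780 in 1 cell of the library labelled knockout.

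Monocytes and monocyte-derived cells showed lower levels of all 6 measured members in the library labelled knockout. Il1b stood at 76.6 CPM (70.2 to 83.5) and 46.2 CPM (39.8 to 53.4), a log2 ratio of -0.73 (-0.98 to -0.49). Nlrp3 stood at 143 CPM (134 to 153) and 88.0 CPM (79.0 to 97.6). Il1rn was at 37.6 and 14.9 CPM, Il18 at 33.4 and 16.9 CPM, Il18bp at 41.0 and 18.6 CPM and the decoy Il1r2 at 12.6 and 1.99 CPM. Among these members, Il1r2 reached 10 CPM only in the library labelled control. In this class 13.7% of 9098 genes were lower and 18.8% higher, and the median log2 ratio was -1.06 for the 6 members and 0.10 for all genes. The shares of cells with a count differed less than the levels, at 15.3% and 14.1% for Il1b and 51.9% and 54.6% for Nlrp3, and at 11.5% and 8.10% and 31.2% and 24.3% after thinning. In the library labelled knockout 10 cells held 63.4% of the Il1b counts. The direction of 3 members depended on the choice of cells. With clusters in place of gates the log2 ratio was 0.99 for Il1b and 0.43 for Il18, and without cells holding neutrophil marker counts it was 0.49 for Il1b and 0.17 for Il1r2. Cells holding neutrophil marker counts were 60.5% and 78.9% of this class.

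Pathway genes in the monocyte-derived class were lower or close, with 13 lower and none higher of 38 measured. Of 9098 genes in this class, 13.7% were lower and 18.8% higher. Among genes that IL-1 signalling is known to raise, 7 of 9 were lower, led by Saa3 (56.3 and 2.48 CPM), Cxcl2 (117 and 14.7 CPM), Tnfaip3 (38.6 and 17.4 CPM) and the monocyte chemokine Ccl2 (91.9 and 44.0 CPM). The sensor Nlrp1b (50.5 and 19.4 CPM), the inflammatory caspase Casp4 (65.8 and 41.5 CPM), the ATP-gated channel P2rx7 (67.6 and 44.2 CPM), Gsdmd (129 and 81.7 CPM), Il18rap (10.5 and 5.96 CPM) and Myd88 (131 and 79.8 CPM) were also lower. Kupffer markers, all 8 with counts, summed to 504 CPM in this class in the library labelled control and 386 CPM in the library labelled knockout, and the general phagocyte genes Csf1r, Cd68 and Adgre1 to 2163 and 995 CPM. Their part in the differences was not tested.

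Neutrophils held the highest Il1b, Il1rn and Il1r2 levels of any class in the library labelled control, but only 29 cells were gated there. All 6 measured members were lower in the library labelled knockout, where 17.3% of 6777 genes were lower and 24.4% higher. Of these members, Il1a reached 10 CPM only in the library labelled control, at 57.4 and 8.30 CPM on 9 and 12 counts. Il1b stood at 383 CPM (292 to 493, 60 counts) and 94 CPM (78.9 to 111, 136 counts), and Il1rn at 485 CPM (382 to 607) and 92.7 CPM (77.6 to 110). Both rested largely on 1 cell of the library labelled control. That cell, singled out after its values were seen, had 38 of the 60 Il1b counts, 60 of the 76 Il1rn counts, all 9 Il1a counts and 9 of the 15 Nlrp3 counts. The same cell had 314 of 326 Cxcl2 counts and all 47 Ptgs2 counts (Ptgs2 makes prostaglandins), with 25 S100a8 counts of 6402. Of the 3 general phagocyte genes it had 0 counts of Csf1r and Adgre1 but 13 of the 29 Cd68 counts. Its depth was 4105 counts, against a class median of 4763. The other 28 cells gave 144 CPM of Il1b, 105 CPM of Il1rn, 39.3 CPM of Nlrp3 and 78.6 CPM of Cxcl2, nearer to the 94, 92.7, 31.1 and 69.8 CPM of the library labelled knockout. With a stricter filter on cells the Il1rn log2 ratio was 0.03.

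The decoy receptor Il1r2 was spread more evenly over neutrophils. It stood at 249 CPM (177 to 340) and 138 CPM (119 to 158), a log2 ratio of -0.86 (-1.36 to -0.32). An Il1r2 count was found in 79.3% and 50.5% of neutrophils, and in 65.5% and 30.3% after thinning, against 0 and 1.26% of B cells. Il18bp was at 89.3 CPM (48.8 to 150) and 38.0 CPM (28.6 to 49.5). Il36g, a ligand of the IL-36 branch of the family, was at 632 CPM (514 to 769) and 292 CPM (265 to 321), in 79.3% and 60.6% of cells. The IL-18 receptor subunit Il18rap was at 179 and 172 CPM, in 62.1% and 62.8% of cells, and its partner Il18r1 at 12.8 and 38.0 CPM on 2 and 55 counts.

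Of 35 pathway genes measured in neutrophils, 15 were lower and 4 higher, against 17.3% and 24.4% of 6777 genes. Genes that IL-1 signalling is known to raise made up 6 of the lower ones, led by Ptgs2 (300 and 4.15 CPM), Cxcl2 (2081 and 69.8 CPM), Tnfaip3 (185 and 15.2 CPM) and Icam1 (83.0 and 13.8 CPM), and the cell described above held 47 of 47, 314 of 326, 26 of 29 and 9 of 13 of their counts. Without the cell with most counts of each gene, 6 pathway genes were lower and 9 higher, and 3 members were lower. Mefv (38.3 and 15.2 CPM), Casp4 (128 and 51.9 CPM), Pycard (95.7 and 41.5 CPM), Ninj1 (25.5 and 11.1 CPM), Gsdmd (95.7 and 62.9 CPM), Myd88 (134 and 74.7 CPM) and Irak2 (44.7 and 29.0 CPM) were lower as well. The higher ones included Naip6 (6.38 and 13.1 CPM) and Map3k7, the kinase TAK1, at 12.8 and 47.0 CPM on 2 and 68 counts.

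**Figure D3:**
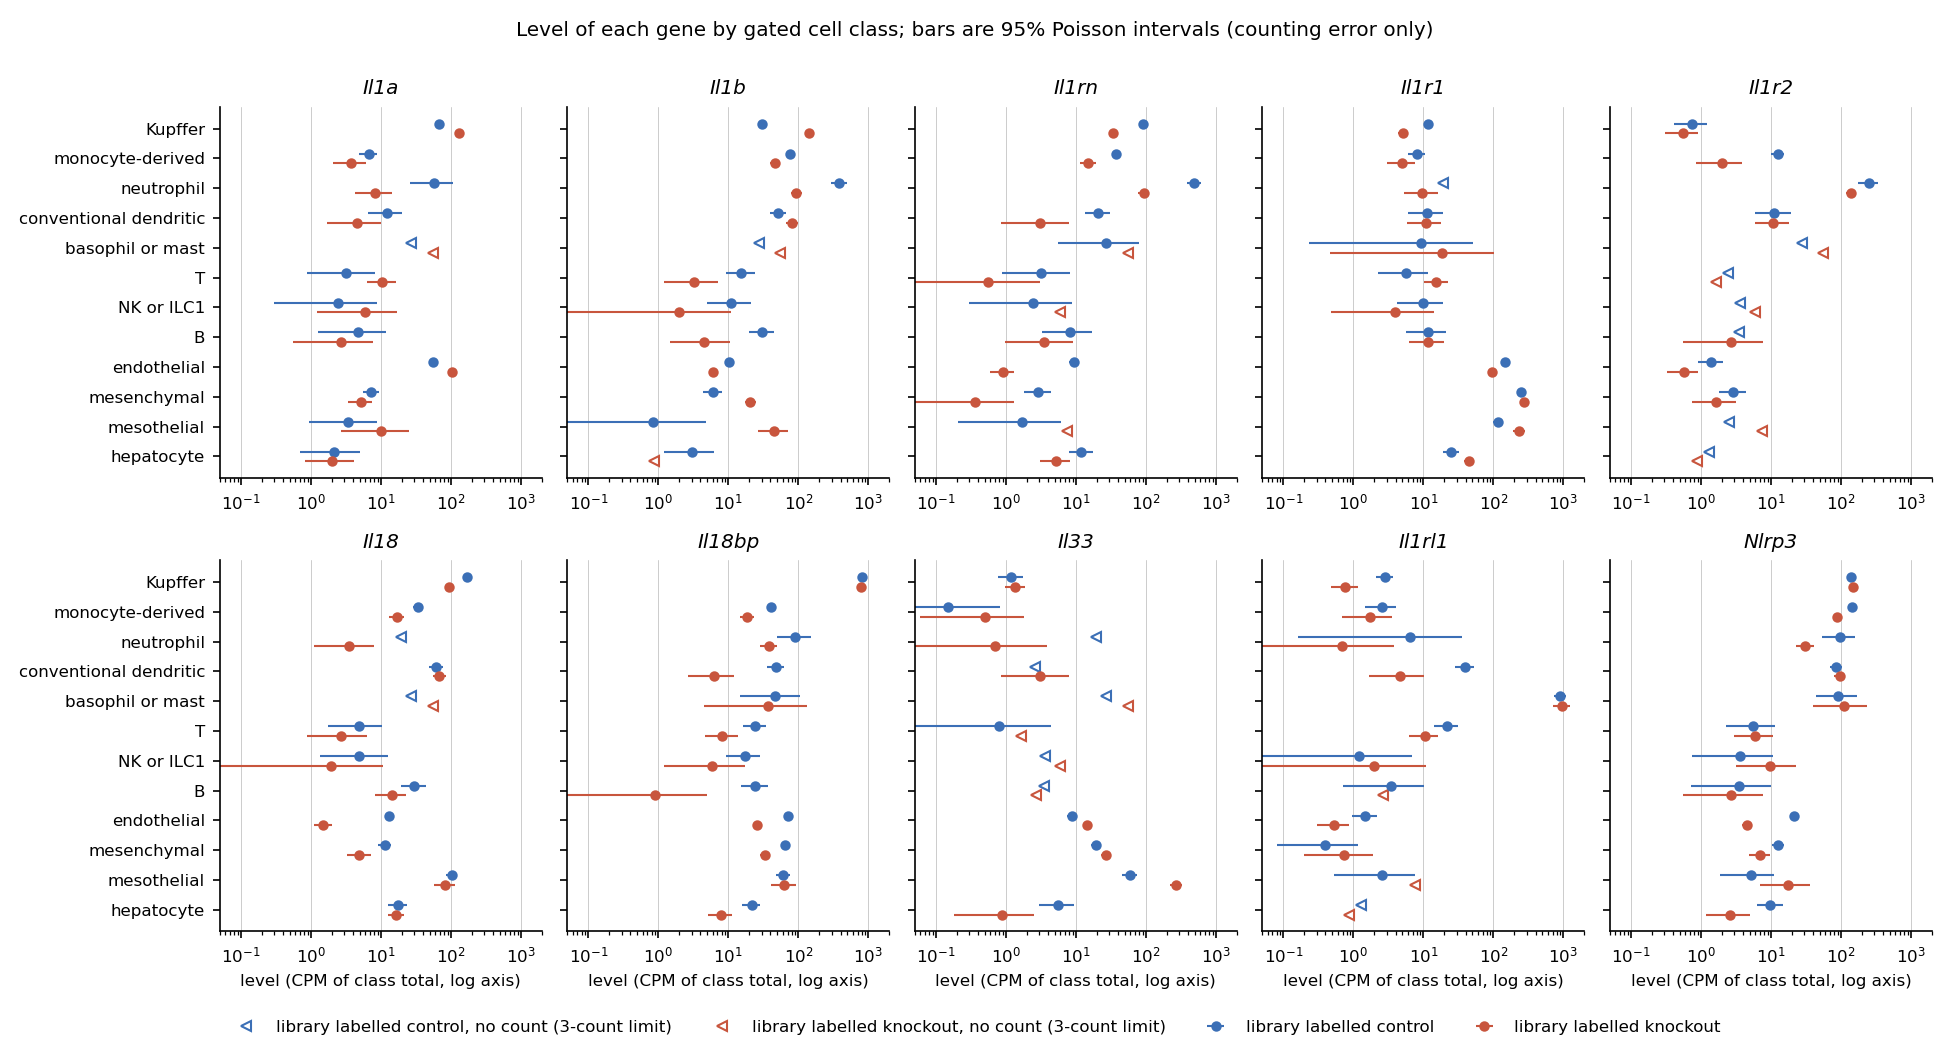
Level of each of the 10 genes (CPM of the class total, log axis) in 12 gated cell classes of the library labelled control (blue) and the library labelled knockout (red); bars are 95% Poisson intervals for counting error, truncated at the left edge, and open triangles mark classes with no count, drawn at the level of 3 counts. Il1r1 is highest in mesenchymal cells, Il18bp in Kupffer cells and Il1rl1 in basophils or mast cells in both libraries.

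Endothelial cells, the class in which the Cre driver is active, held the IL-1 receptor and were the other source of Il1a. Il1r1 stood at 147 CPM (141 to 153, 2597 counts) and 95.7 CPM (92.2 to 99.3, 2865 counts), a log2 ratio of -0.62 (-0.70 to -0.54), 1.54-fold lower in the library labelled knockout. An Il1r1 count was found in 57.3% and 42.9% of endothelial cells, and in 31.8% and 20.8% after thinning, against 3.47% and 2.51% of thinned B cells. Il1a went the other way, at 56.0 CPM (52.6 to 59.6) and 105 CPM (102 to 109), a log2 ratio of 0.91 (0.81 to 1.01). Il1a counts were found in 29.5% and 42.8% of endothelial cells, and in 13.4% and 21.4% after thinning. Cells with and without the ligand held the receptor at shares whose intervals overlapped: after thinning, an Il1r1 count was present in 32.8% (27.2 to 38.8) and 19.0% (16.3 to 22.0) of cells with Il1a and in 31.6% (29.4 to 33.9) and 21.3% (19.8 to 22.9) of cells without it.

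The 2 kinds of endothelial cell differed in their levels and shared these directions. Sinusoidal cells, with a Stab2 or Clec4g count and no Vwf count, had Il1a at 61.7 and 107 CPM and Il1r1 at 136 and 92.9 CPM. Cells with a Vwf count, a mark of larger vessels, had less Il1a, at 30.9 and 63.4 CPM, and more Il1r1, at 197 and 151 CPM. The Il1r1 log2 ratio was -0.55 in sinusoidal cells and -0.38 in Vwf cells, within 1.5-fold in each. The class was not made up alike in the 2 libraries: Vwf cells were 272 of 1977 and 138 of 3522 cells. The largest cluster named endothelial held 99 and 2351 kept cells, and the second 1007 and 614. Il33 stood at 7.24 and 12.2 CPM in sinusoidal cells and at 16.4 and 56.2 CPM in Vwf cells, where it was found in 13.2% and 29.7% of 272 and 138 cells. In the whole class Il33 was at 8.83 CPM (7.50 to 10.3) and 14.2 CPM (12.9 to 15.6), a log2 ratio of 0.68 (0.42 to 0.96), with no count in B cells.

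The other measured members, all at higher levels in Kupffer cells, were lower in endothelial cells of the library labelled knockout. Il18bp was at 71.8 and 25.3 CPM, Nlrp3 at 21.5 and 4.58 CPM, Il18 at 13.2 and 1.5 CPM and Il1b at 10.4 and 6.11 CPM. Il1b and Il18 were found in 1.37% and 0.88% and in 2.07% and 0.426% of thinned endothelial cells, at or below their 2.31% and 1.26% and their 5.78% and 3.35% in B cells. Il18bp was found in 11.6% and 6.62%, above its 7.51% and 0.418% in B cells. Nlrp3 was found in 3.14% and 0.852%, against 0.578% and 0.837% in B cells. The source of these counts was not tested, and the Il1b log2 ratio turned to 0.45 with cells of 2 lineages kept. Csf1r, Cd68 and Adgre1 summed to 487 and 88.1 CPM in endothelial cells, and the 8 Kupffer markers to 802 and 569 CPM. The highest single Kupffer marker was at 379.5 and 390.5 CPM. A count of any Kupffer marker was found in 86.7% and 92.0% of endothelial cells. In all, 2 of the 7 measured members were higher and 5 lower, against 5.75% and 14.2% of 9263 genes. Of these, Nlrp3, Il18 and Il1b reached 10 CPM only in the library labelled control and Il33 only in the library labelled knockout. When cells with a count of Csf1r, Cd68 or Adgre1 were left out, 4 members were measured, 1 of them higher and 1 lower. Total counts per class also set the scale, and other scalings raised the log2 ratios of this class by 0.10, which brings Il1r1 within 1.5-fold.

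Pathway genes in endothelial cells were mostly close. Of 27 measured, 2 were higher and 6 lower, against 5.75% and 14.2% of 9263 genes. The median log2 ratio of the 27 was -0.02, against -0.05 for all genes. P2rx7 (34.0 and 62.6 CPM) and Casp4 (51.9 and 78.3 CPM), a cytosolic sensor of lipopolysaccharide, were higher. The DNA sensor Aim2 (21.7 and 11.9 CPM), Pycard (19.4 and 12.7 CPM), Ninj1 (23.9 and 10.9 CPM), Myd88 (38.1 and 24.4 CPM), Cxcl2 (27.8 and 2.34 CPM) and Ccl2 (42.7 and 9.15 CPM) were lower. The other 4 measured genes that IL-1 signalling is known to raise lay within 1.5-fold, Icam1 at 152 and 135 CPM and Nfkbia at 392 and 534 CPM among them.

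**Figure D4:**
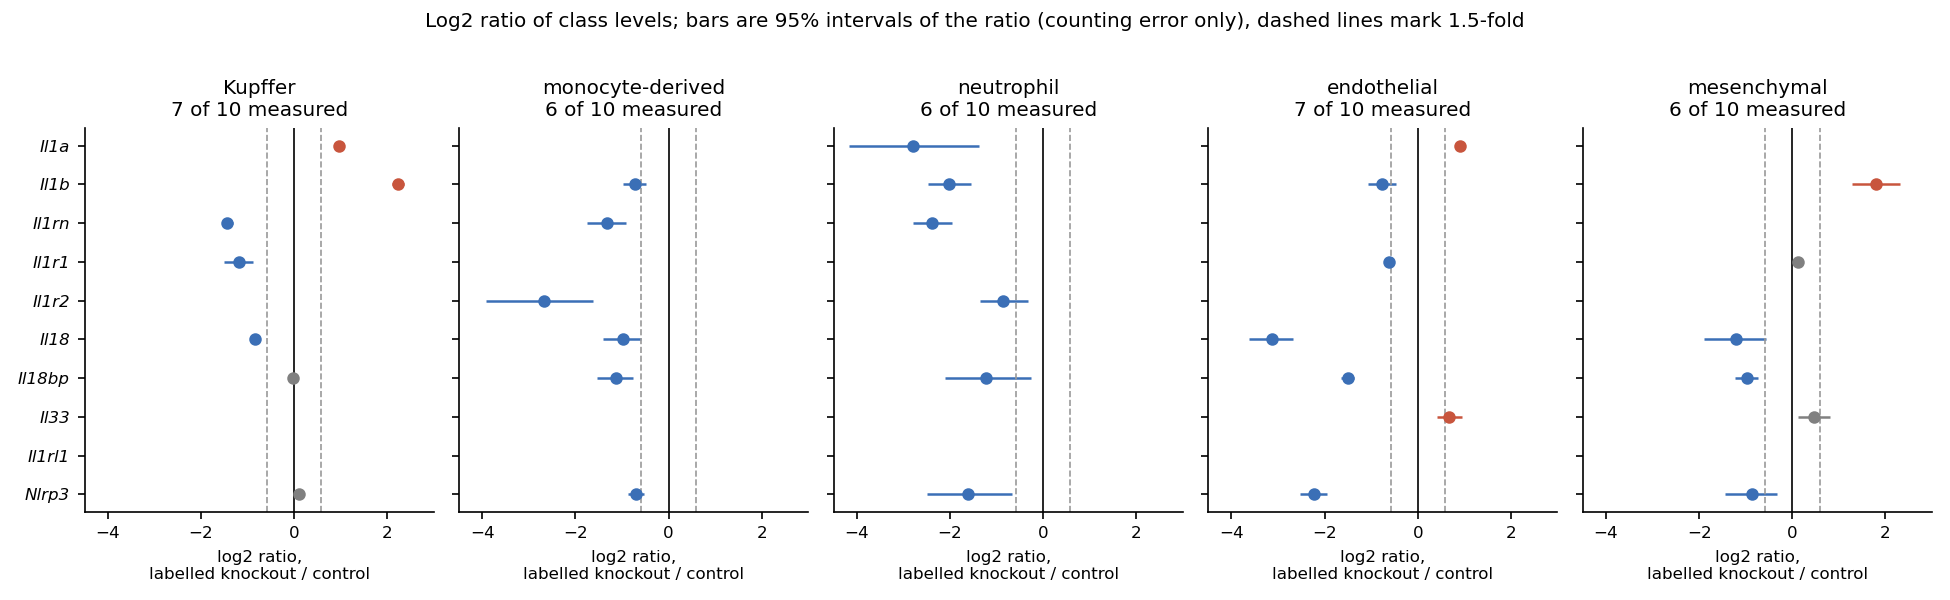
Log2 ratio of the level in the library labelled knockout over that in the library labelled control for each measured gene in 5 cell classes, with 95% intervals for counting error; red and blue points are at least 1.5-fold higher and lower, grey points are closer, and dashed lines mark 1.5-fold. In Kupffer cells Il1b (2.23) and Il1rn (-1.43) lie on opposite sides, while all measured genes are lower in monocyte-derived cells and neutrophils.

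Mesenchymal cells had the highest Il1r1 level of the classes, and this level did not differ by 1.5-fold. Il1r1 stood at 249 CPM (238 to 261, 1875 counts) and 272 CPM (259 to 287, 1486 counts), a log2 ratio of 0.13 (0.03 to 0.23). It was found in 83.7% and 77.5% of these cells, and in 49.6% and 45.9% after thinning. Stellate-type cells, with more Lrat, Reln and Colec11 than smooth muscle transcripts, had Il1r1 at 254 and 264 CPM. Il33 was at 19.3 CPM (16.3 to 22.7) and 26.8 CPM (22.6 to 31.5), in 5.11% and 11.4% of cells, and 64 of its 145 counts in the library labelled control came from 1 cell. In the whole class Il18bp (65.5 and 33.2 CPM), Il18 (11.4 and 4.95 CPM) and Nlrp3 (12.8 and 6.97 CPM) were lower. Phagocyte genes summed to 319 and 145 CPM in it, and the 8 Kupffer markers to 735 and 589 CPM. Their part in the differences was not tested. With cells of 2 lineages kept the log2 ratio turned to 0.18 for Il18bp and 0.34 for Nlrp3. None of the 3 lower members then passed the size rule. Il1b was at 5.98 and 20.7 CPM, in 3.13% and 3.37% of cells, with 34 of its 113 counts in 1 cell of the library labelled knockout. Its thinned shares were 0.824% and 1.87%, against 2.31% and 1.26% in B cells, so below B cells with the control label and above them with the other. Its log2 ratio was -2.06 when cells holding phagocyte gene counts were left out. Of 6 measured members 1 was higher and 3 lower, against 8.11% and 12% of 9581 genes. Il18 and Nlrp3 reached 10 CPM only in the library labelled control and Il1b only in the library labelled knockout.

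Responsive genes in mesenchymal cells were mixed, with 2 higher and 4 lower of 11 measured, against 8.11% and 12% of 9581 genes. Ptgs2 (18.5 and 1.83 CPM) and Cxcl2 (20.3 and 6.05 CPM) were lower, and Nfkbiz (41.5 and 66.6 CPM) and Zc3h12a (12.9 and 20.4 CPM), an RNase that limits inflammatory transcripts, were higher. The co-receptor Il1rap stood at 14.4 and 14.5 CPM. No signal adaptor differed by 1.5-fold, Tab2 at 126 and 119 CPM and Irak1 at 99.5 and 101 CPM. Among inflammasome genes P2rx7 (12.9 and 6.78 CPM) was lower and Txnip (206 and 335 CPM) higher, and Gsdmd (49.2 and 49.9 CPM) and Casp8 (42.1 and 35.8 CPM) were close.

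**Figure D5:**
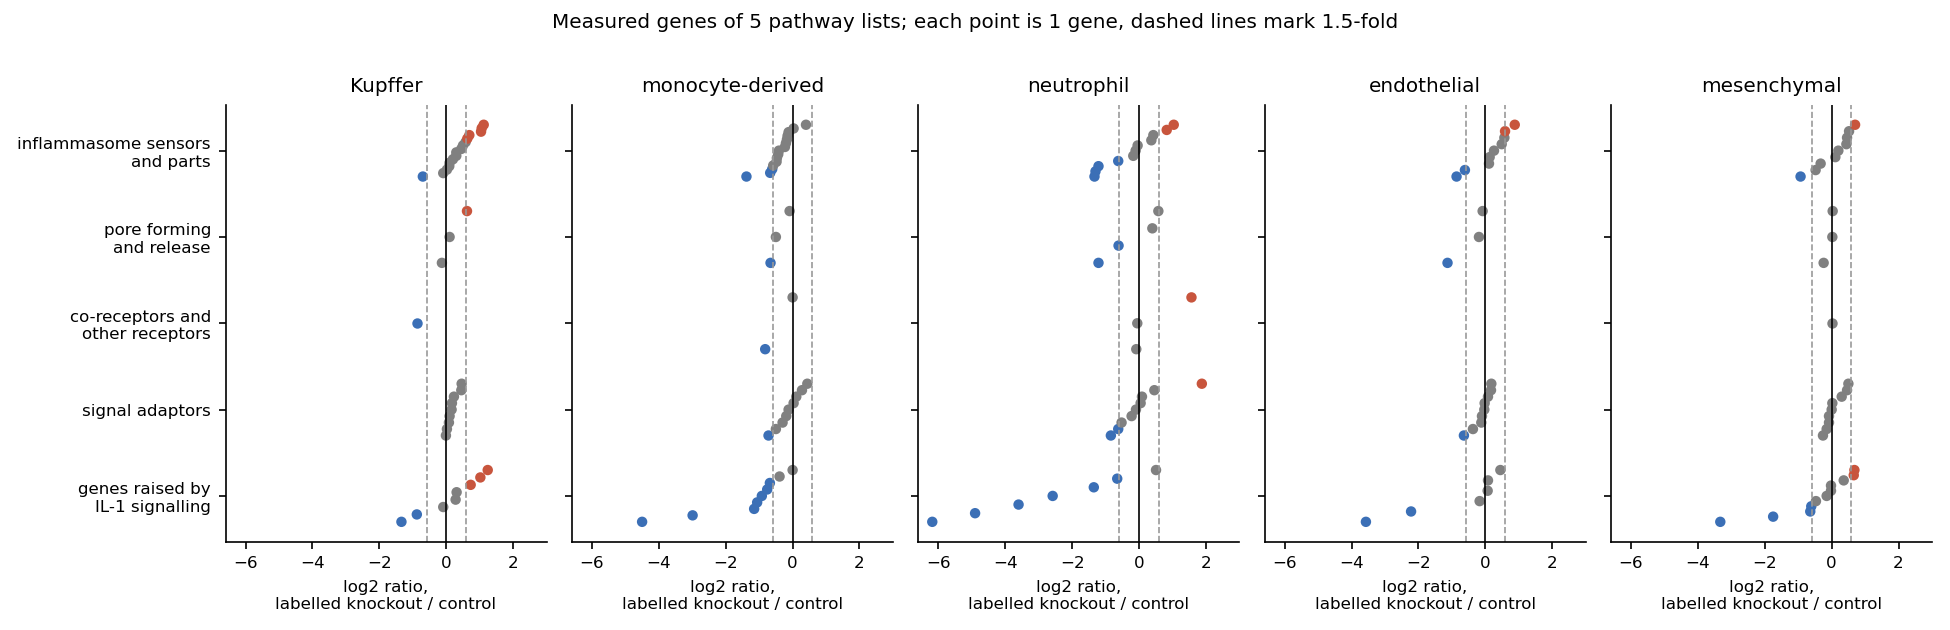
Log2 ratio of measured pathway genes in 5 cell classes, 1 point per gene, sorted within each list and coloured as higher (red), lower (blue) or within 1.5-fold (grey); dashed lines mark 1.5-fold. The genes that IL-1 signalling is known to raise include 7 lower of 9 in monocyte-derived cells and 6 lower of 7 in neutrophils. Of all genes measured in these 2 classes, 13.7% and 17.3% were lower. Signal adaptors lie mostly near 0.

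Mesothelial cells, which cover the liver surface, stood apart for Il33. Its level was 58.8 CPM (45.8 to 74.5, 69 counts in 62 cells) and 270 CPM (222 to 326, 108 counts in 20 cells), found in 40.3% and 75.0% of cells. Il1r1 was at 118 CPM (98.9 to 139) and 233 CPM (188 to 285), and Il18 at 104 and 82.6 CPM. These 20 cells are few, and 17.3% of 8942 genes were higher by the size rule in this class. The ST2 receptor Il1rl1 was found at its highest level in basophils or mast cells, at 904 CPM (735 to 1101) and 950 CPM (709 to 1245), on 99 and 52 counts, of which 56 and 37 came from 1 cell each. Conventional dendritic cells had Il1b at 51.9 CPM (39.6 to 66.9) and 81.7 CPM (66.9 to 98.8), a log2 ratio of 0.65 (0.18 to 1.13), where 11.6% of 9052 genes were higher. They had Il18 at 61.5 and 68.6 CPM and Nlrp3 at 85.7 and 97.1 CPM. Il1rl1 (39.0 and 4.62 CPM), Il18bp (47.6 and 6.16 CPM), Il1rn (20.8 and 3.08 CPM) and Il1a (12.1 and 4.62 CPM) were lower in them, 4 of 9 measured members, where 12.1% of genes were lower. Each of these 4 reached 10 CPM only in the library labelled control. The log2 ratio turned to 0.55 for Il1a with clusters in place of gates and to 1.87 for Il1rn after thinning. The 8 Kupffer markers summed to 632 and 197 CPM in this class, and Csf1r, Cd68 and Adgre1 to 635 and 388 CPM.

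T cells and NK cells or ILC1 carried both subunits of the IL-18 receptor. Il18r1 was at 208 CPM (183 to 235) and 236 CPM (214 to 259) in T cells and at 95.3 CPM (75.3 to 119) and 205 CPM (168 to 248) in NK cells or ILC1. Il18rap was at 140 and 107 CPM in T cells and at 197 and 334 CPM in NK cells or ILC1. Members themselves were scarce in lymphocytes: 5 were measured in T cells, none in NK cells or ILC1, and 4 in B cells. In T cells Il1a (3.22 and 10.4 CPM) and Il1r1 (5.63 and 15.3 CPM) were higher and Il1b (15.3 and 3.28 CPM), Il18bp (24.1 and 8.21 CPM) and Il1rl1 (21.7 and 10.4 CPM) lower, each on 30 counts or fewer per library, where 11.8% of 9356 genes were higher and 11.6% lower. All of these but Il1rl1 reached 10 CPM in only 1 library. With clusters the log2 ratio turned to 1.2 for Il1b and -0.14 for Il1r1. In B cells Il1b (30.2 and 4.45 CPM), Il18 (30.2 and 14.3 CPM) and Il18bp (24.4 and 0.891 CPM) were lower and Il1r1 was at 11.6 CPM in both, where 13% of 8650 genes were lower. There, Il1b and Il18bp reached 10 CPM only in the library labelled control. Residual hepatocytes had Il1r1 at 24.9 CPM (18.9 to 32.2) and 45.1 CPM (38.3 to 52.8) and its co-receptor Il1rap at 16.7 CPM (11.9 to 22.9) and 83.8 CPM (74.4 to 94). After thinning, an Il1r1 count was found in 4.92% and 4.82% of hepatocytes, and in the library labelled knockout 10 cells held 65.8% of Il1r1 counts. Il1rn (12 and 5.24 CPM) and Il18bp (21.5 and 7.85 CPM) were lower in hepatocytes, both reaching 10 CPM only in the library labelled control. Il18 was at 17.6 and 16.6 CPM. The class held 264 and 83 cells, 10.4% of 8329 genes were higher and 56.1% lower in it, and scaling by the TMM method (trimmed mean of M-values) raised its log2 ratios by 0.66.

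The genes whose levels most resembled each member were found over 18 points, 9 classes with at least 50 cells in each library by 2 libraries, among 8187 genes, by Pearson's r of log2(CPM + 1). Points share libraries and classes, so the values are descriptions. Il1a was most like Clec1b (0.98), Cdh5 (0.96) and Mrc1 (0.96), all high in sinusoidal endothelial or Kupffer cells. Il1b was most like Csf2ra (0.91), Hk2 (0.90) and Slc8a1 (0.89), and Il1rn most like Dnase2a (0.93), Ston2 (0.89) and Epn1 (0.89). Il18 was most like Ctsh (0.92), Lacc1 (0.89) and Rbm47 (0.89), and Il18bp most like the Kupffer marker Slc40a1 (0.95), Syn1 (0.94) and C1qc (0.94). Nlrp3 was most like P2ry6 (0.97), Clec12a (0.96) and Tlr13 (0.94), and Il1r1 most like the mesenchymal and endothelial genes Fermt2 (0.95) and Tead1 (0.94). Il1r2, Il33 and Il1rl1 did not reach 50 CPM in these classes and were not compared.

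Some counts cannot be assigned to 1 gene with certainty, since use of strand in counting is not given in the sources used here. In GENCODE M21 annotation of GRCm38, Il1a, Il1b, Il1r2, Il18 and Il18bp overlap genes on the other strand (Gm14023, Il1bos, Gm16894, Bco2 with Tex12, and Numa1), and Il1r1 and Il1r2 also overlap genes on their own strand. Il1rn, Il33, Il1rl1 and Nlrp3 overlap no other annotated gene.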

How the data were processed

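The 2 deposited matrices, 1 per library of liver cells from 1 mouse, give counts of each gene in each barcode, as whole numbers with no normalization by the authors, from libraries made with the BD Rhapsody whole transcriptome assay per the labels' protocols. Per the submitters' processing notes the genome build was GRCm39. How reads were aligned and counted, how molecular identifiers were collapsed and how cells were called is not given in the sources used here. Total counts were 106208933 and 129802501 in 10000 barcodes each (control first), and the libraries shared 2 barcodes.

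Barcodes were kept from 300 genes and 500 counts upward, with mitochondrial counts no higher than 25%. Kept cells had median depths of 7972 and 9506 counts. A cell joined a class when at least 3 of its markers had a count and their sum per 10000 counts passed a minimum set after marker distributions, but not the members' values, had been seen. Cells passing gates of 2 or more lineages were set aside in place of a doublet caller. Counts were summed per class and expressed as CPM, with exact Poisson intervals for levels, exact conditional intervals for ratios and exact Clopper-Pearson intervals for shares. A count of 0 was set to 3 counts in a ratio. Clusters came from Scanpy 1.11.5 (2000 variable genes, 30 components, 15 neighbours, resolution 1.0), and scaling factors from edgeR 4.0.16 and DESeq2 1.42.0. The ratio code was tested on simulated counts. The members and lists were chosen with earlier results of these data known. The text names every member where measured and, per pathway list in 5 classes, up to 4 genes with the largest ratio past 1.5-fold or else the 2 of highest CPM. Casp1, Pycard, Gsdmd and Nfkbia in Kupffer cells, Nfkbia in endothelial cells, and receptor subunits in lymphocytes, neutrophils and hepatocytes were added after their values were seen. Of 10 members, 10 had a RefSeq promoter entry.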

Additional observations from a re-analysis of the deposited data

How the results depend on the processing

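Outside B cells and basophils or mast cells, the 54 ratios of measured members were recomputed under 12 alternatives planned at the outset and 3 added after seeing the data (leaving out endothelial and mesenchymal cells with phagocyte gene counts, leaving out the cell with most counts of a gene in each class and library, and using the first Kupffer cluster alone). The member ratios in B cells and in basophils or mast cells were not recomputed. Of 609 values, 456 moved by no more than their counting interval, 138 moved further without turning a ratio past 1.5-fold, and 15 turned one. In Kupffer cells no called ratio changed direction, and Il1b stayed between 2.12 and 2.50. With 1 library per label, no replicate could be left out, and intervals do not cover differences between mice. No paired analysis was possible because each label has 1 library. Depth limits Il1r2, Il33 and Il1rl1 in most classes and every member in the 29 control neutrophils.

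The log2 ratios past 1.5-fold that changed direction were these. With cells of 2 lineages kept, Il1b in endothelial cells gave 0.45, and Il18bp and Nlrp3 in mesenchymal cells gave 0.18 and 0.34. With the stricter marker gate Il1b in endothelial cells gave 0.27, and Nlrp3 in mesenchymal cells gave 0.00 when rounded, which is not counted as a change of direction. With clusters in place of gates, Il1b and Il18 in monocyte-derived cells gave 0.99 and 0.43, Il1a in conventional dendritic cells gave 0.55, and Il1b and Il1r1 in T cells gave 1.2 and -0.14. Without cells holding neutrophil marker counts Il1b and Il1r2 gave 0.49 and 0.17 in monocyte-derived cells and Il1b gave -0.23 in mesenchymal cells, where it gave -2.06 without cells holding phagocyte gene counts. Cells holding neutrophil marker counts were 60.5% and 78.9% of monocyte-derived cells and 22.1% and 25.7% of mesenchymal cells. The stricter cell filter gave 0.03 for Il1rn in neutrophils, and thinning gave 1.87 for Il1rn in conventional dendritic cells. The cause was not tested for any of these.

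Counts of members that moved by more than 1.5 times were as follows, each against the value in the report. In endothelial cells the members higher (2) became 1 with at least 50 CPM, with cells of 2 lineages kept, with clusters, with the mean of per-cell CPM, with the stricter gate and without cells holding phagocyte gene counts. Those lower (5) became 2 with at least 50 CPM, with clusters and with the stricter gate, 3 with thinning, with the mean of per-cell CPM and without cells holding neutrophil marker counts, 1 without cells holding phagocyte gene counts and 8 with no filter on low values. In Kupffer cells those lower (3) became 1 in the first cluster alone. In monocyte-derived cells those lower (6) became 2 with at least 50 CPM or with clusters and 3 with the mean of per-cell CPM, and those higher (0) became 1 with clusters or with no filter. In neutrophils those lower (6) became 2 with the stricter cell filter, 3 without the cell with most counts and 10 with no filter. With no filter, Il1r1, Il18 and Il33 were called lower only because a count of 0 was set to 3 counts. They had 0 counts in the library labelled control and 14, 5 and 1 counts in the library labelled knockout. In mesenchymal cells those higher (1) became 0 with at least 50 CPM or the mean of per-cell CPM, 2 with no filter or without the cell with most counts, and 3 with cells of 2 lineages kept or the stricter gate. Those lower (3) became 0 with cells of 2 lineages kept, with thinning, with the mean of per-cell CPM and without cells holding phagocyte gene counts, 1 with at least 50 CPM, with the stricter gate and without cells holding neutrophil marker counts, and 5 with no filter.

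Counts of pathway genes moved as well. In endothelial cells those higher (2) became 4 with TMM or median-of-ratios scaling and 1 with cells of 2 lineages kept, thinning, the mean of per-cell CPM or the stricter gate. Those lower (6) became 0 with at least 50 CPM, 3 with cells of 2 lineages kept, 2 with clusters, the stricter gate or without cells holding phagocyte gene counts, and 20 with no filter. In Kupffer cells those lower (4) became 2 with at least 50 CPM, in the first cluster alone and without cells holding neutrophil marker counts, and 9 with no filter. In monocyte-derived cells those lower (13) became 8 with thinning, 3 with clusters and 7 with the mean of per-cell CPM, and those higher (0) became 1 with thinning or no filter and 2 with clusters. In neutrophils those higher (4) became 1 with at least 50 CPM and 9 with thinning or without the cell with most counts, and those lower (15) became 24 with no filter, 8 with the stricter cell filter and 6 without the cell with most counts. In mesenchymal cells those higher (3) became 10 with cells of 2 lineages kept and 5 with no filter, and those lower (5) became 1 with at least 50 CPM, 3 with cells of 2 lineages kept, 0 with clusters, 13 with no filter and 2 with the stricter gate or without cells holding phagocyte gene counts.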

Other observations

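Cells that passed the gates of 2 or more lineages were left out of every class, and their values are given here. The library labelled control had 1383 such cells and that labelled knockout 1616, with median depths of 15618 and 24278 counts. They held 46.9 and 107 CPM of Il1a, 21.5 and 83.0 CPM of Il1b, 24.2 and 18.5 CPM of Il1rn, 69.6 and 53.8 CPM of Il18 and 62.2 and 77.2 CPM of Nlrp3. An Il1b count was found in 15.6% and 45.9% of them. Il1r1 stood at 95.3 and 61.9 CPM in them. Of all counts in kept cells, these cells held 23.5% of Il1b in the library labelled control, against 40.4% in that labelled knockout.

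Il1rl1, the receptor of IL-33, was seen in another rare class. The 3 cells gated as ILC2 in the library labelled control held 38 of the 319 Il1rl1 counts of its gated cells, and no cell of the library labelled knockout passed that gate, which allows a share of up to 0.0419% of its kept cells by the exact binomial interval.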
